A study of Mus musculus with 70 samples.

Results

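The injury response of muscle mesenchymal stromal cells (MmSCs) was set against that of CD31+ cells sorted from the same kind of muscle, gene by gene, in 12 of the 70 libraries of the series. The groups were injured MmSCs, resting MmSCs, injured CD31+ cells and resting CD31+ cells, with 3 libraries each. All came from hindlimb muscle of C57BL/6J mice, a common inbred strain; neither age nor sex is given for them. Injured muscle was collected at day 1 after injection of cardiotoxin, which lyses myofibres, and resting muscle was uninjured and untreated. Cells were released by enzymatic digestion and sorted by flow cytometry in 2 rounds, and each library held 1000 cells. The response of a cell type is the fitted log2 ratio of its injured to its resting libraries. The interaction is the MmSC response minus the CD31+ response, so a positive value means a larger rise or a smaller fall in MmSCs. Levels are given in CPM, the count of a gene scaled to a common library size, with TMM factors.

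MmSCs are the fibroblast-like cells of the muscle interstitium. They make collagens and other matrix, mark with Pdgfra, and are known to divide and to release cytokines soon after muscle damage. CD31, encoded by Pecam1, is the adhesion protein used to sort endothelial cells, which line capillaries and larger vessels and govern blood supply, barrier function and leukocyte entry.

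The labelled cell types held their defining genes. The 12 MmSC markers summed to 39000 to 56700 CPM in injured MmSCs and 158000 to 206000 CPM in resting MmSCs, against 70.7 to 94.1 CPM in injured CD31+ cells and 96.5 to 162 CPM in resting CD31+ cells. Of these markers 4 had a lower interaction and none a higher one, beside 7.71% and 4.78% of all genes tested, with a median of -2.62. Pdgfra, a platelet-derived growth factor receptor, was at 622, 751 and 628 CPM in injured MmSCs and 618, 537 and 582 CPM in resting MmSCs, against 0.628, 0.593 and 1.13 CPM in injured CD31+ cells and 3.03, 2.01 and 1.8 CPM in resting CD31+ cells. Pecam1 was at 0, 0.678 and 0 CPM in injured MmSCs and 1.54, 0.685 and 0.452 CPM in resting MmSCs, against 1929.4, 2121.0 and 1897.8 CPM in injured CD31+ cells and 2260.0, 1960.8 and 2035.9 CPM in resting CD31+ cells. The 12 endothelial markers summed to 493 to 553 CPM in injured MmSCs and 520 to 554 CPM in resting MmSCs, nearly all of it from Eng, a co-receptor that stromal cells also carry. The same markers summed to 15200 to 16900 CPM in injured CD31+ cells and 18100 to 20000 CPM in resting CD31+ cells. Library totals ran from 3205606 to 7519352 counts. Pan-leukocyte markers summed to 11.2, 13.4 and 156 CPM in injured CD31+ cells, the highest in replicate 1, and stayed under 12 CPM in the other groups. The 10 myofibre markers summed to 3.13 to 14.4 CPM in injured MmSCs and 156 to 422 CPM in resting MmSCs, against 41.6 to 90.7 CPM in injured CD31+ cells and 112 to 155 CPM in resting CD31+ cells. These values are given again beside the genes they move with. In sorted populations, fewer cells of a state and less RNA per cell cannot be told apart.

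For most genes that changed in one cell type, the interaction was not called. Of 16374 genes tested, 783 (4.78%) had a response called higher in MmSCs and 1263 (7.71%) a response called lower, at an adjusted p under 0.05 with edgeR. The MmSC response itself was called up for 2981 genes (18.2%) and down for 3871 (23.6%). The CD31+ response was called up for 2324 genes (14.2%) and down for 1531 (9.35%). Among the genes that rose in MmSCs the interaction was not called for 75.1%, and among those that rose in CD31+ cells it was not called for 74.9%. Both cell types rose for 1560 genes and both fell for 960. The median interaction over all genes was -0.16, from a median MmSC response of -0.22 and a median CD31+ response of -0.04.

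The calls took different forms. Of the 783 higher genes, 452 rose in MmSCs with no call in CD31+ cells, 199 rose in both, 75 fell in CD31+ cells with no call in MmSCs, and 41 rose in MmSCs and fell in CD31+ cells. Of the 1263 lower genes, 732 fell in MmSCs with no call in CD31+ cells, 217 rose in CD31+ cells with no call in MmSCs, 125 fell in both, 118 fell in MmSCs and rose in CD31+ cells, and 49 rose in both. Resting levels differed beforehand for many of them: 365 of the higher genes (46.6%) were lower in resting MmSCs than in resting CD31+ cells, and 728 of the lower genes (57.6%) were higher in resting MmSCs. The same background comparison called 23% of all genes lower and 24% higher in resting MmSCs. On the linear scale of CPM the sign of the difference was the other way for 12 of the higher and 116 of the lower genes. The share of calls that were higher moved with the scaling and the genes included. It was 38.3% over all genes, and 49.4% (1020 higher, 1046 lower) in a fit restricted to 9618 genes at 5 CPM or more in both cell types, where the median interaction was 0. Without any 1 of the resting MmSC libraries it was 51.8% to 56.7%, and without replicate 1 of the resting CD31+ cells 51.9%. Interactions of a size near the median of -0.16 depend on this choice.

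**Figure D1:**
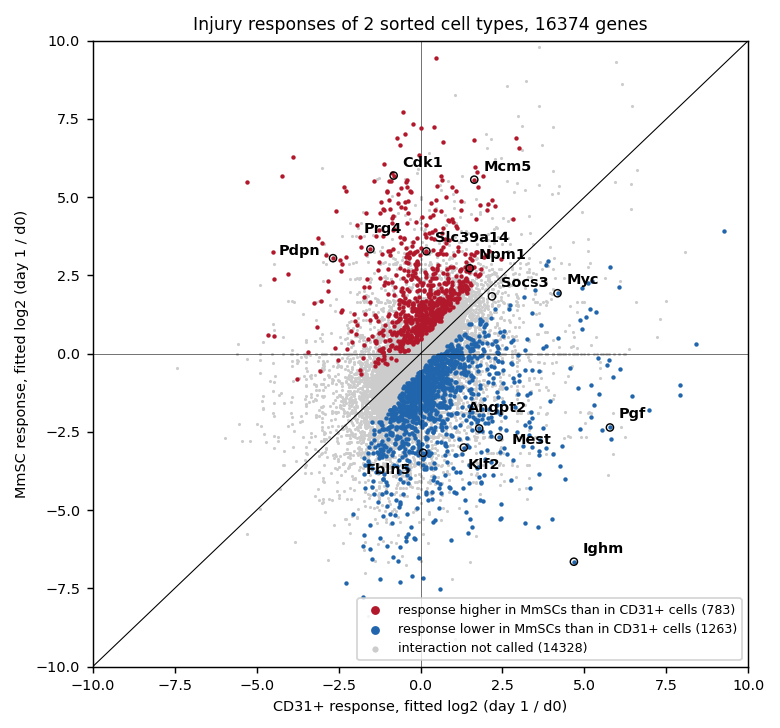
Each point is 1 of 16374 genes, with the fitted log2 response of MmSCs on the vertical axis and of CD31+ cells on the horizontal axis; red marks the 783 genes called higher and blue the 1263 called lower in MmSCs, and the diagonal marks equal responses. Fitted values of genes with no count in a group depend on the prior count, and 4 genes lie beyond the axes.

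DNA replication genes were frequent among the higher calls. Of 25 S-phase and G1/S genes, 17 had a higher response in MmSCs and 2 a lower one, with a median interaction of 2.67, against 4.78% and 7.71% of all genes called; limma-voom called 16 and 2 and DESeq2 19 and 2. In MmSCs 20 of the 25 rose and 1 fell, and in CD31+ cells 10 rose and 1 fell. Their summed level was 5970, 3620 and 4660 CPM in injured MmSCs and 963, 1000 and 891 CPM in resting MmSCs, against 2240, 2170 and 2020 CPM in injured CD31+ cells and 1150, 1090 and 1080 CPM in resting CD31+ cells. The groups did not overlap within either cell type.

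Mcm3, Mcm5, Mcm6 and Mcm7 encode subunits of the replicative helicase and are textbook targets of E2F factors, which act at the entry into S phase. The letters TTTNGCGC, a form of the E2F site chosen after the values were seen, were searched on both strands of the RefSeq promoters (build GRCm38.p6), windows of 300 bases that run 250 before and 50 after a start. They occurred in 6 of the 20 listed S-phase genes with a promoter in that table (30.0%), in 39 of 623 genes called higher (6.26%), in 13 of 963 called lower (1.35%) and in 299 of 11597 tested genes (2.58%). Of all 32851 promoters, 1.38% held them. Among 21 mitotic genes with a promoter there, Cdk1 alone held them (4.76%). The 250 bases before the start of 3 cell cycle genes are shown 5′ to 3′ because they hold these letters, with the matches in capitals; where 2 matches of opposite strands overlap, the run of capitals is longer.
Mcm5, chr8:75109259-75109508, + strand: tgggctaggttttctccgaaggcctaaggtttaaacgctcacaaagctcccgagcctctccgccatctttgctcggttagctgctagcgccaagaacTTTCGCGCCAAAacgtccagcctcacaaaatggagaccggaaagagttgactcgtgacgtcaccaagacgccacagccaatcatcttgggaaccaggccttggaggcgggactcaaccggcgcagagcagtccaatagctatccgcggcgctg
Mcm6, chr1:128359706-128359955, - strand: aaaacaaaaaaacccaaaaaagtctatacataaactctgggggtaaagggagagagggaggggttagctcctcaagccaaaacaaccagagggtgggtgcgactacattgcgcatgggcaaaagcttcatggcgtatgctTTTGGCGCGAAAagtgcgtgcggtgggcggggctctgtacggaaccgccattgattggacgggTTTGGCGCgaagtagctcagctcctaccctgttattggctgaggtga
Cdk1, chr10:69352913-69353162, - strand: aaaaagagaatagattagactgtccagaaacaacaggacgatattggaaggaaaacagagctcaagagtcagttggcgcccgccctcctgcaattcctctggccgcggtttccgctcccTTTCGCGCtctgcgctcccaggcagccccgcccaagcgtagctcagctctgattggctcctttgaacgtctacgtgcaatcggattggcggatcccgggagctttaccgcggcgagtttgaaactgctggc
Such a match describes the letters and does not show binding.

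Mcm5 was at 673, 406 and 538 CPM in injured MmSCs and 6.66, 14.6 and 13.6 CPM in resting MmSCs, against 81.5, 66.4 and 57.3 CPM in injured CD31+ cells and 22.3, 25.5 and 18 CPM in resting CD31+ cells. The rise in MmSCs was larger than that in CD31+ cells by 3.92 ± 0.37 (SE, adjusted p = 4.55e-07) on the log2 scale, and the injured MmSC libraries lay above all others. Mcm3 was at 574, 385 and 454 CPM in injured MmSCs and 20.1, 16.5 and 22.6 CPM in resting MmSCs, against 132, 110 and 121 CPM in injured CD31+ cells and 49.5, 59.1 and 45.5 CPM in resting CD31+ cells. The interaction of Mcm3 was 3.34 ± 0.25 (SE, adjusted p = 9.74e-09). At rest MmSCs were the lower of the 2 cell types in both genes, so the order of the cell types was opposite after injury. Mcm6 had an interaction of 3.20 and Mcm7 one of 3.34. The CD31+ response was called for Mcm3 and Mcm5 and not for Mcm6 or Mcm7.

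Cdc6, which loads the helicase at origins, was at 119, 52 and 88.7 CPM in injured MmSCs and 3.92, 3.2 and 3.61 CPM in resting MmSCs, against 5.97, 3.76 and 5.01 CPM in injured CD31+ cells and 10.8, 11.5 and 10.2 CPM in resting CD31+ cells. It rose in MmSCs by 4.58, while the CD31+ change of -1.12 was not called, and the interaction was 5.70 ± 0.64 (SE, adjusted p = 3.99e-06). Pcna, the sliding clamp of DNA polymerases, rose in both cell types and by 1.79 ± 0.25 (SE, adjusted p = 4.93e-05) more in MmSCs. It was at 273, 152 and 200 CPM in injured MmSCs and 29.9, 31.1 and 30.7 CPM in resting MmSCs, against 59.3, 57.1 and 55.4 CPM in injured CD31+ cells and 25.9, 30.1 and 31.2 CPM in resting CD31+ cells. Chaf1b, a histone chaperone subunit, had an interaction of 5.06 ± 0.62 (SE, adjusted p = 9.25e-06). Gmnn, which blocks repeated origin licensing, had one of 5.52 ± 0.63 (SE, adjusted p = 4.43e-06). Ung, which removes uracil from DNA, had one of 4.30 ± 0.80 (SE, adjusted p = 0.00097), and Tcf19 one of 4.29 ± 0.49 (SE, adjusted p = 4.43e-06).

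The S-phase list also held both genes with a lower response. Cdkn1a, the p21 inhibitor of cyclin-dependent kinases, was at 82.1, 106 and 81.3 CPM in injured MmSCs and 148, 120 and 118 CPM in resting MmSCs, against 551, 805 and 641 CPM in injured CD31+ cells and 179, 71.2 and 99.1 CPM in resting CD31+ cells. It rose in CD31+ cells by 2.51 and had no call in MmSCs, and its interaction was -3.03 ± 0.41 (SE, adjusted p = 2.92e-05). The injured CD31+ libraries lay above all others. Cdkn1b, the related inhibitor p27, fell in both cell types and by more in MmSCs, with an interaction of -0.93 (adjusted p = 0.0431).

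Mitotic genes differed by more but varied among the injured MmSC libraries. Of 25 tested, 13 were called higher and 0 lower (4.78% and 7.71% of all genes), with a median interaction of 4.32; at an unadjusted p under 0.05 there were 19 higher and 0 lower. The count depended on the tool, since DESeq2 called 15 higher and limma-voom 2, and neither called any lower. In MmSCs 22 rose, and in CD31+ cells none rose and 2 fell. Their summed level was 1070, 184 and 541 CPM in injured MmSCs and 13.5, 93.9 and 22.6 CPM in resting MmSCs, against 52.7, 50.2 and 53.9 CPM in injured CD31+ cells and 107, 112 and 38.9 CPM in resting CD31+ cells. Replicate 1 of the injured MmSCs was highest and replicate 2 lowest, and replicate 2 was the highest of the resting MmSCs.

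Cdk1, the kinase that drives entry into mitosis, was at 145, 34.1 and 83.9 CPM in injured MmSCs and 0.171, 4.34 and 0.904 CPM in resting MmSCs, against 4.87, 3.56 and 4.36 CPM in injured CD31+ cells and 13.4, 6.31 and 2.1 CPM in resting CD31+ cells. The interaction of Cdk1 was 6.51 ± 1.06 (SE, adjusted p = 0.000239). Prc1, which bundles microtubules of the central spindle, was at 45.3, 4.74 and 19.8 CPM in injured MmSCs and 1.19, 3.88 and 2.94 CPM in resting MmSCs, against 0.628, 0.593 and 0.969 CPM in injured CD31+ cells and 7.35, 7.75 and 1.5 CPM in resting CD31+ cells. It rose in MmSCs by 3.16 and fell in CD31+ cells by 2.89 on the log2 scale, and its interaction was 6.05 ± 1.23 (SE, adjusted p = 0.00201). The injured and resting libraries of each cell type did not overlap in Prc1, although 4.74 CPM in 1 injured MmSC library came close to 3.88 CPM in 1 resting library. Birc5, or survivin, a subunit of the chromosomal passenger complex, was at 66.5, 9.15 and 33.6 CPM in injured MmSCs and 0.341, 2.51 and 0.226 CPM in resting MmSCs, against 0.314, 1.98 and 0.162 CPM in injured CD31+ cells and 5.62, 5.17 and 0 CPM in resting CD31+ cells. The interaction of Birc5 was 7.48 ± 1.59 (SE, adjusted p = 0.00295). Ccna2, encoding cyclin A2, had one of 7.14 ± 1.72 (SE, adjusted p = 0.00771), and Mki67, which coats mitotic chromosomes, one of 5.25 ± 1.49 (SE, adjusted p = 0.0227). The call of Ccna2 was lost without replicate 2 of the resting CD31+ cells (6.38, adjusted p = 0.0583). That of Mki67 was lost without replicate 2 or 3 of the injured CD31+ cells, replicate 1 of the injured MmSCs or replicate 2 of the resting CD31+ cells (4.37 to 4.88, adjusted p = 0.0527 to 0.102). With limma-voom, Prc1, Birc5, Ccna2 and Mki67 were not called (adjusted p = 0.0903 to 0.198). Exons of Prc1 and Ccna2 overlap those of the opposite-strand genes Rccd1 and Exosc9 over 11.1% and 12.5% of their length, so some reads may be shared.

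**Figure D2:**
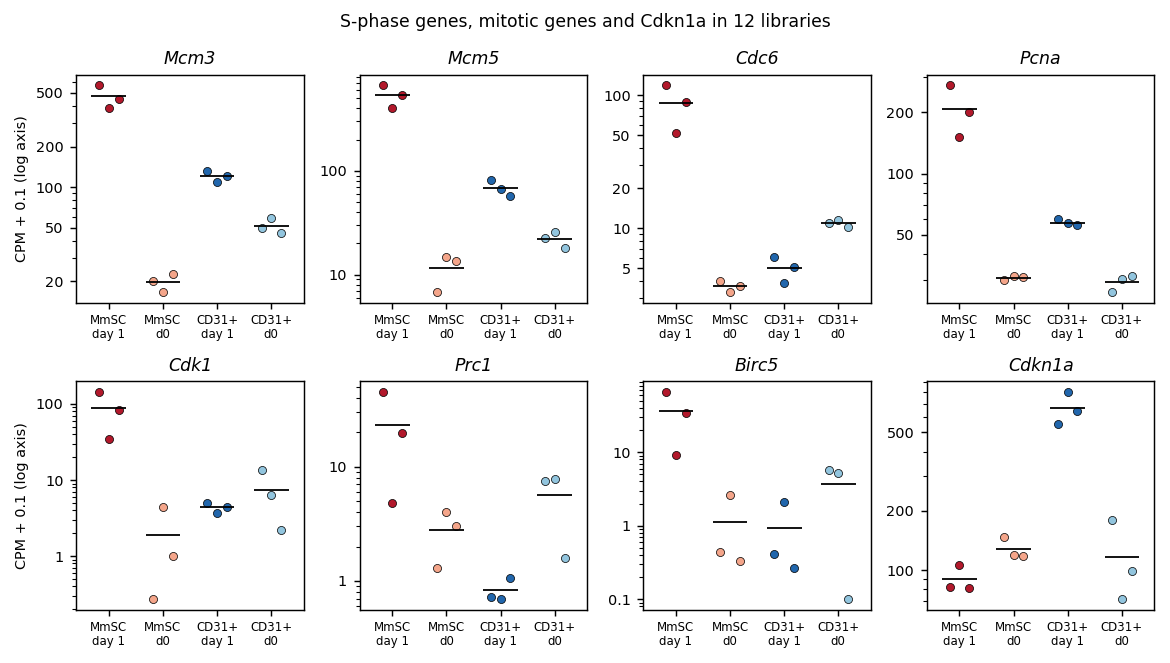
Levels of 8 genes in CPM plus 0.1 on a log axis, with 1 point per library and a bar at the group mean, for injured and resting MmSCs and injured and resting CD31+ cells from left to right. The replication genes are highest in all 3 injured MmSC libraries, the mitotic genes Cdk1, Prc1 and Birc5 spread widely among them, and Cdkn1a is highest in injured CD31+ cells.

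Several surface and secreted proteins of stromal cells also had a higher response in MmSCs. Prg4, lubricin, a lubricating glycoprotein of joints and connective tissue, was at 6071.6, 6055.4 and 7124.8 CPM in injured MmSCs and 465, 416 and 1020.1 CPM in resting MmSCs, against 17.3, 14 and 19.5 CPM in injured CD31+ cells and 41.7, 50.8 and 55.4 CPM in resting CD31+ cells. It rose in MmSCs by 3.34 and fell in CD31+ cells by 1.53 on the log2 scale, and its interaction was 4.87 ± 0.47 (SE, adjusted p = 6.5e-07). Pdpn, podoplanin, the membrane ligand of the platelet receptor CLEC-2, was at 3404.5, 3344.9 and 3877.1 CPM in injured MmSCs and 438, 436 and 412 CPM in resting MmSCs, against 0.157, 1.19 and 1.62 CPM in injured CD31+ cells and 11.5, 6.31 and 0 CPM in resting CD31+ cells. The interaction of Pdpn was 5.71 ± 0.82 (SE, adjusted p = 6.21e-05). The CD31+ values of Pdpn were low, and its injured and resting CD31+ libraries overlapped. With limma-voom Pdpn was not called (adjusted p = 0.0919). Steap1, a metalloreductase, was at 151, 150 and 145 CPM in injured MmSCs and 3.24, 1.37 and 0.678 CPM in resting MmSCs, with no count in injured CD31+ cells. Injured MmSCs were thus at least 291-fold higher in Steap1 than injured CD31+ cells, against a floor of 3 counts per library.

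Slc39a14, a zinc and iron importer, was at 247, 194 and 179 CPM in injured MmSCs and 21.7, 20.6 and 22.1 CPM in resting MmSCs, against 47.7, 40.9 and 45.4 CPM in injured CD31+ cells and 35.2, 39.3 and 44 CPM in resting CD31+ cells. The interaction of Slc39a14 was 3.09 ± 0.30 (SE, adjusted p = 6.5e-07). The injured MmSC libraries lay above all others. Cd44, the hyaluronan receptor, rose in both cell types and by 1.58 ± 0.30 (SE, adjusted p = 0.00103) more in MmSCs. It was the 1 gene called higher among 8 hyaluronan genes, of which 1 was lower, beside 4.78% and 7.71% of all genes. Runx1, a transcription factor, was at 56.7, 29 and 47.2 CPM in injured MmSCs and 3.75, 6.17 and 4.74 CPM in resting MmSCs, against 2.04, 0.791 and 0.808 CPM in injured CD31+ cells and 1.3, 0.574 and 0.599 CPM in resting CD31+ cells. Its interaction of 2.69 ± 0.69 (SE, adjusted p = 0.0115) was not called without replicate 1 of the resting CD31+ cells (2.28, adjusted p = 0.152).

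Some genes known from small vessels rose in MmSCs from very low resting levels. Car4, a carbonic anhydrase of capillary endothelium, was at 17, 20.5 and 25.3 CPM in injured MmSCs and 0.341, 0 and 0 CPM in resting MmSCs, against 305, 493 and 418 CPM in injured CD31+ cells and 479, 422 and 790 CPM in resting CD31+ cells. The 378 counts in injured MmSCs against 2 in resting MmSCs gave a 151-fold ratio (95% counting interval 41.5 to 1250), and the interaction was called (adjusted p = 9.21e-06). Injured MmSCs still lay far below CD31+ cells in Car4. Lmcd1, a LIM domain protein, was at 42.5, 53 and 42.8 CPM in injured MmSCs and 0.512, 1.6 and 1.81 CPM in resting MmSCs, against 161, 187 and 163 CPM in injured CD31+ cells and 371, 303 and 362 CPM in resting CD31+ cells. The interaction of Lmcd1 was 6.21 ± 0.50 (SE, adjusted p = 3.12e-08). Aqp1, a water channel, had one of 3.69, with 5.08 to 10.7 CPM in injured MmSCs against 2443 to 3161 CPM in injured CD31+ cells, and limma-voom did not call it (adjusted p = 0.0612). Cav1, the coat protein of caveolae, had one of 1.94 ± 0.39 (SE, adjusted p = 0.00208). Of 16 genes of capillary lipid uptake and transport, 2 were higher and 2 lower, with a median of -0.02, beside 4.78% of all genes higher and 7.71% lower.

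Inflammatory genes were called in the interaction in some lists and not in others, beside 4.78% of all genes called higher and 7.71% lower. Of 5 tested neutrophil chemokines and colony-stimulating factors, all 5 rose in MmSCs and 2 rose in CD31+ cells. With edgeR 1 of them, Csf1, had a higher interaction, against 2 with limma-voom and 3 with DESeq2. However, 3 of the 5 had no count in at least 1 group, so a missing call does not show equal responses. Among 12 CC chemokines and 16 inflammatory cytokines tested with edgeR there were 0 called interactions, with 1 and 2 lower at an unadjusted p under 0.05. DESeq2 called 2 and 1 of them lower and limma-voom 0, although 10 of the CC chemokines and 6 of the cytokines had no count in at least 1 group, where the fit is weak. Of 21 cytokine receptors 3 were called higher and 3 lower (5 and 4 with DESeq2), and of 26 NF-kB targets and feedback genes 2 were higher and 1 lower (4 and 2 with DESeq2). The share of NF-kB genes called was near the 12.5% of all genes called in either direction.

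Csf1, the growth factor of macrophages, was at 501, 386 and 437 CPM in injured MmSCs and 206, 200 and 162 CPM in resting MmSCs, against 21, 44.1 and 25.2 CPM in injured CD31+ cells and 39.6, 43.9 and 42.2 CPM in resting CD31+ cells. It rose in MmSCs by 1.22, the CD31+ change of -0.48 was not called, and the interaction was 1.70 ± 0.32 (SE, adjusted p = 0.00105). Cxcl1, a neutrophil chemoattractant, was at 583, 562 and 447 CPM in injured MmSCs and 38.7, 39.8 and 95.8 CPM in resting MmSCs, against 13, 20.4 and 12 CPM in injured CD31+ cells and 3.03, 2.87 and 4.79 CPM in resting CD31+ cells. It rose in both cell types, by 3.20 in MmSCs and 2.09 in CD31+ cells, and the interaction of 1.11 ± 0.73 (SE, adjusted p = 0.372) was not called; without a filter on low counts it was called at 1.22 (adjusted p = 0.0149). Il6, a cytokine that signals through gp130, was at 32.3, 25.4 and 18.5 CPM in injured MmSCs and 0, 0.685 and 0.678 CPM in resting MmSCs, against 11.3, 15.2 and 10.2 CPM in injured CD31+ cells and 0, 0.861 and 1.5 CPM in resting CD31+ cells. Its interaction of 1.81 ± 1.35 (SE, adjusted p = 0.44) was not called, and injured MmSCs did not differ from injured CD31+ cells past the threshold (log2 difference 1.06, adjusted p = 0.144).

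For other chemokines the resting CD31+ libraries held almost no counts, so the CD31+ response is given as a bound or with a counting interval, or not as a ratio. Cxcl5, which attracts neutrophils, was at 1868.4, 1553.8 and 1224.2 CPM in injured MmSCs and 0.512, 0.228 and 0.226 CPM in resting MmSCs, against 0.314, 0.791 and 0.808 CPM in injured CD31+ cells and 0, 0 and 0 CPM in resting CD31+ cells. Ccl7, a monocyte chemoattractant, was at 1117.8, 812 and 1005.7 CPM in injured MmSCs and 20.3, 16.2 and 26.9 CPM in resting MmSCs, against 1.26, 0.198 and 0.485 CPM in injured CD31+ cells and 0.216, 0 and 0 CPM in resting CD31+ cells. Injured CD31+ cells had 12 counts of Ccl7 against 1 in resting CD31+ cells, which is 7.80-fold (95% counting interval 1.15 to 333). Ccl2, another monocyte chemoattractant, was at 2435.2, 1240.1 and 2113.1 CPM in injured MmSCs and 30.5, 34 and 50.6 CPM in resting MmSCs, against 20.1, 104 and 32 CPM in injured CD31+ cells and 0, 0 and 0 CPM in resting CD31+ cells. Injured CD31+ cells were at least 61.7-fold higher in Ccl2 than resting CD31+ cells, and the injured MmSC libraries were above all injured CD31+ libraries. Saa3, an acute-phase protein, was at 86.6, 61.7 and 116 CPM in injured MmSCs and 0, 0 and 1.13 CPM in resting MmSCs, against 0.628, 0.198 and 0 CPM in injured CD31+ cells and 0, 0 and 0 CPM in resting CD31+ cells. Cxcl2 was at 8.12, 11.9 and 9.92 CPM in injured MmSCs and 0, 0 and 0 CPM in resting MmSCs, against 22, 13.8 and 6.62 CPM in injured CD31+ cells and 0, 0.574 and 0 CPM in resting CD31+ cells. In this chemokine the injured libraries of the 2 cell types overlapped.

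A form of the NF-kB site, GGGA, any base and TTTCC in a row, was searched in the same way. It was found in the promoters of 4 of the 4 matched neutrophil chemokine and colony-stimulating factor genes. Among 21 matched NF-kB targets and feedback genes, 2 held it (9.52%). It occurred in 6 of 623 genes called higher (0.963%), 2 of 963 called lower (0.208%) and 62 of 11597 tested genes (0.535%). Of all promoters, 0.411% held these letters. The windows of Csf1, Cxcl1, Il6 and Nfkbia are shown because they hold these letters on one of the strands, in capitals, while Csf1 alone among them had a called interaction.
Csf1, chr3:107760470-107760719, - strand: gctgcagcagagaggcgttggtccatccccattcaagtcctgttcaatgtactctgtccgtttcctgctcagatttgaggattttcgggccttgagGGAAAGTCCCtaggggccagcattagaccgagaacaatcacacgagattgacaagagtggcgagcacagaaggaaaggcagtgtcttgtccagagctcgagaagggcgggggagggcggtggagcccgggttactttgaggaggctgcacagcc
Cxcl1, chr5:90890995-90891244, + strand: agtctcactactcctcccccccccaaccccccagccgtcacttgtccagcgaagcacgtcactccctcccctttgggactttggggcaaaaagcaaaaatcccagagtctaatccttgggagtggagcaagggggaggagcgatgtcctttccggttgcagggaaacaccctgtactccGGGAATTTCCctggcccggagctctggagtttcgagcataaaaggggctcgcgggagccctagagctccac
Il6, chr5:30012864-30013113, + strand: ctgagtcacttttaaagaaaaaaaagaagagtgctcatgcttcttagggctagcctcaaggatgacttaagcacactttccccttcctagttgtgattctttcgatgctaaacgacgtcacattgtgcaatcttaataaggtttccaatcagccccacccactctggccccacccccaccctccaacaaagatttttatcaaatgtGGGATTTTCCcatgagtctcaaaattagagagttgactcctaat
Nfkbia, chr12:55492648-55492897, - strand: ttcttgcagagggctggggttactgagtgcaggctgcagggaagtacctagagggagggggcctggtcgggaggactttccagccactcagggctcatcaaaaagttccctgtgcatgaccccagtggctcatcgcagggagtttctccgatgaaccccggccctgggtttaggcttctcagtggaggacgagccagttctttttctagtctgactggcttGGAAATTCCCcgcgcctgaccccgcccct
Of the other letters searched, TTCNNNGAA (STAT) occurred in 6.90% of higher and 8.72% of lower genes, TGANTCA (AP-1) in 4.98% and 9.24%, 2 runs of GAAA with 2 bases between them (the interferon-stimulated element) in 2.57% and 3.43%, and CACGTG (E-box) in 12.2% and 13.5%. All tested genes held them in 8.33%, 6.79%, 3.98% and 11.2% of cases.

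Nfkbia and Socs3, feedback genes of these pathways, rose in both cell types. Nfkbia, the inhibitor of NF-kB, was at 456, 414 and 393 CPM in injured MmSCs and 230, 196 and 246 CPM in resting MmSCs, against 789, 867 and 696 CPM in injured CD31+ cells and 537, 436 and 598 CPM in resting CD31+ cells. The interaction of Nfkbia was 0.33 ± 0.26 (SE, adjusted p = 0.479). Socs3, the feedback inhibitor of gp130 signalling, was at 286, 283 and 300 CPM in injured MmSCs and 79.7, 74 and 91.5 CPM in resting MmSCs, against 122, 170 and 114 CPM in injured CD31+ cells and 34.8, 25.5 and 28.5 CPM in resting CD31+ cells. The interaction of Socs3 was -0.36 ± 0.35 (SE, adjusted p = 0.572). Neither interaction was called, and in both genes injured and resting libraries were separate within each cell type. Tnfaip3, another NF-kB inhibitor, had an interaction of -0.67 and Icam1, a leukocyte adhesion molecule, one of -0.50, both not called.

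Several NF-kB and receptor genes did have a called interaction. Sod2, the mitochondrial superoxide dismutase, was at 368, 304 and 288 CPM in injured MmSCs and 78.2, 61.5 and 62.6 CPM in resting MmSCs, against 112, 124 and 106 CPM in injured CD31+ cells and 71.1, 81.8 and 81.2 CPM in resting CD31+ cells. The interaction of Sod2 was 1.70 ± 0.19 (SE, adjusted p = 3.96e-06). Osmr, the oncostatin M receptor, was at 366, 409 and 380 CPM in injured MmSCs and 124, 157 and 165 CPM in resting MmSCs, against 346, 409 and 357 CPM in injured CD31+ cells and 427, 395 and 410 CPM in resting CD31+ cells. It rose in MmSCs to the level that CD31+ cells held throughout, with an interaction of 1.52 ± 0.39 (SE, adjusted p = 0.011). Il6st, the shared gp130 chain, had one of 1.08 ± 0.20 (SE, adjusted p = 0.00109), since it fell in CD31+ cells by 0.96 on the log2 scale and had no call in MmSCs. Il1r1, the interleukin-1 receptor, had one of 0.42, not called, and was higher in MmSCs both after injury and at rest, by 2.20 and 1.78 on the log2 scale.

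Fgl2, a secreted fibrinogen-like protein, had an interaction of 3.75 ± 0.81 (SE, adjusted p = 0.00342). Zc3h12a, an RNase that degrades cytokine transcripts, had one of 1.51 ± 0.46 (SE, adjusted p = 0.0343), lost without any 1 of 7 libraries spread over all 4 groups (1.30 to 1.54, adjusted p = 0.0533 to 0.0879). Tnfaip2 was lower, at -2.99 ± 0.54 (SE, adjusted p = 0.000672), with a rise in CD31+ cells and no call in MmSCs. Ifnar2, an interferon receptor chain, had one of 0.59 ± 0.16 (SE, adjusted p = 0.0148). Ackr1 and Ackr3, chemokine scavengers, had values of -2.98 and -1.68. Exons of Ackr1 overlap those of Cadm3 on the same strand over 25.7% of their length, and Cadm3 had the higher mean level (65.3 against 55.0 CPM). Ifngr1, at -0.69, lost its call without any 1 of 7 libraries (-0.67 to -0.42, adjusted p = 0.0509 to 0.181).

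**Figure D3:**
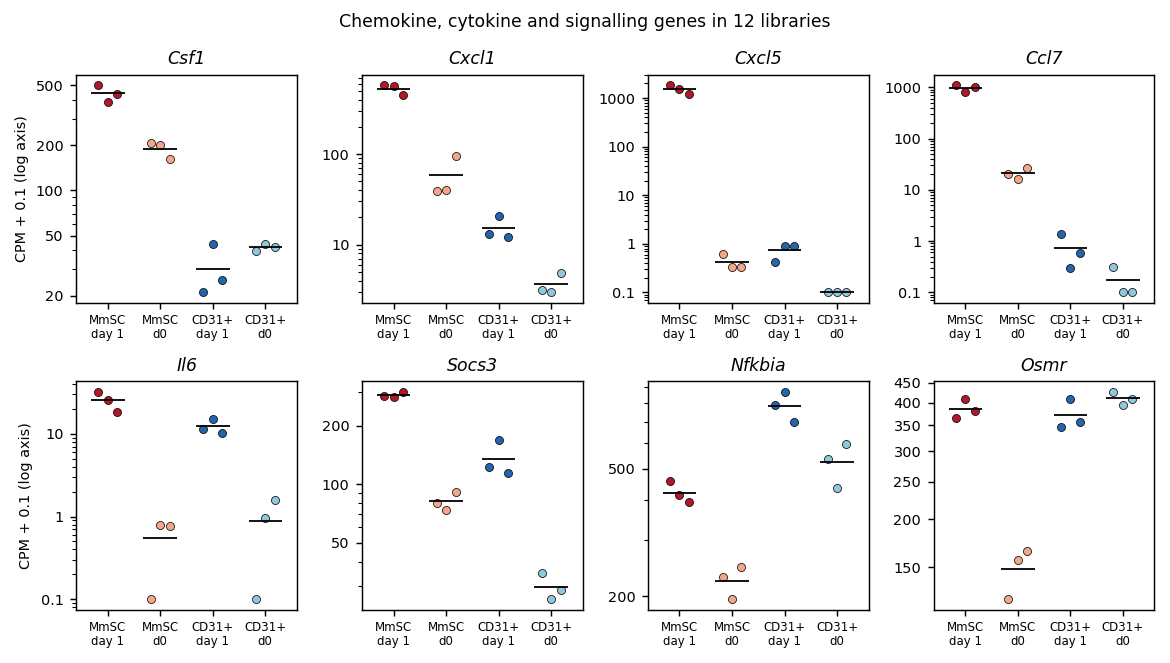
Levels of 8 genes in CPM plus 0.1 on a log axis, with 1 point per library and a bar at the group mean, for injured and resting MmSCs and injured and resting CD31+ cells from left to right. Cxcl5 and Ccl7 are highest in injured MmSCs and near 0 in both CD31+ groups, Socs3, Nfkbia and Il6 rise in both cell types, and Osmr in injured MmSCs reaches the CD31+ level.

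Matrix genes made up a part of the lower calls. Of 25 collagens 10 were lower and 1 higher, with a median interaction of -1.98, and of 32 matrix glycoproteins and proteoglycans 12 were lower and 1 higher, with a median of -1.43 (7.71% of all genes were lower and 4.78% higher). In MmSCs 21 collagens fell and 2 rose, while in CD31+ cells 1 fell and 1 rose. The summed collagen level was 13000, 14100 and 12700 CPM in injured MmSCs and 62900, 61900 and 40900 CPM in resting MmSCs, against 4780, 4580 and 4430 CPM in injured CD31+ cells and 3150, 3400 and 3230 CPM in resting CD31+ cells. The groups did not overlap within either cell type, and they moved in opposite directions.

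Fbln5, a protein of elastic fibres, was at 96.2, 113 and 63.9 CPM in injured MmSCs and 848, 793 and 813 CPM in resting MmSCs, against 495, 643 and 552 CPM in injured CD31+ cells and 647, 508 and 438 CPM in resting CD31+ cells. It fell in MmSCs by 3.17 on the log2 scale with no call in CD31+ cells, and the interaction was -3.25 ± 0.37 (SE, adjusted p = 4.48e-06). Eln, elastin, had an interaction of -2.79 ± 0.33 (SE, adjusted p = 7.45e-06). Col15a1, a basement membrane collagen, was at 52.4, 40.3 and 60.4 CPM in injured MmSCs and 238, 283 and 345 CPM in resting MmSCs, against 108, 80.9 and 86.6 CPM in injured CD31+ cells and 74.4, 84.7 and 54.5 CPM in resting CD31+ cells. The interaction of Col15a1 was -2.86 ± 0.30 (SE, adjusted p = 1.59e-06). Col18a1, the source of endostatin, fell in MmSCs and rose in CD31+ cells, with an interaction of -2.92 ± 0.42 (SE, adjusted p = 5.44e-05). Lamc1, a laminin chain, had one of -1.67 ± 0.19 (SE, adjusted p = 5.26e-06).

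Col6a1, of the microfibrillar collagen VI, had an interaction of -3.73 ± 0.84 (SE, adjusted p = 0.00456), with CD31+ levels of 0.649 to 11.5 CPM against 734 CPM or more in MmSCs. Col4a1, the main basement membrane collagen, had one of -1.31 ± 0.32 (SE, adjusted p = 0.00747), lost without replicate 3 of the resting MmSCs (-0.99, adjusted p = 0.0527). The members called higher were Col8a1, at 1.89 ± 0.58 (SE, adjusted p = 0.0346), and Ccn2, a matricellular growth factor, at 1.88 ± 0.38 (SE, adjusted p = 0.00214). The call of Col8a1 was lost without any 1 of 8 libraries (1.57 to 1.98, adjusted p = 0.0522 to 0.121) and with DESeq2 (adjusted p = 0.234).

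Of 27 matrix proteases and inhibitors 6 were lower and 0 higher, beside 7.71% and 4.78% of all genes (10 and 0 at an unadjusted p under 0.05, 6 and 0 with limma-voom, 10 and 0 with DESeq2), and the genes named here rose in CD31+ cells. Mmp14, the membrane-bound collagenase, was at 223, 178 and 237 CPM in injured MmSCs and 325, 400 and 359 CPM in resting MmSCs, against 149, 144 and 120 CPM in injured CD31+ cells and 13.4, 23 and 22.8 CPM in resting CD31+ cells. It rose in CD31+ cells by 2.82 and fell in MmSCs by 0.77 on the log2 scale, and its interaction was -3.58 ± 0.39 (SE, adjusted p = 2.53e-06). Adamts4, an aggrecanase, was at 34.2, 26.8 and 28.1 CPM in injured MmSCs and 15.7, 17.1 and 9.94 CPM in resting MmSCs, against 131, 222 and 110 CPM in injured CD31+ cells and 5.41, 7.17 and 3 CPM in resting CD31+ cells. The interaction of Adamts4 was -3.82 ± 0.67 (SE, adjusted p = 0.000478). Plau, urokinase, had one of -2.07 ± 0.33 (SE, adjusted p = 0.000213), with no call in MmSCs. Injured MmSCs lay above injured CD31+ cells in Mmp14 and Plau and below them in Adamts4, in which resting MmSCs lay above resting CD31+ cells.

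Among 22 cholesterol synthesis genes 12 fell in MmSCs and none rose, while 1 fell and 1 rose in CD31+ cells. The interaction was lower for 9 and higher for 0, beside 7.71% and 4.78% of all genes, with a median of -1.18. At an unadjusted p under 0.05 it was lower for 14 and higher for 0, with limma-voom for 5 and 0 and with DESeq2 for 11 and 0. Their summed level was 649, 593 and 676 CPM in injured MmSCs and 1870, 1150 and 1310 CPM in resting MmSCs, against 406, 439 and 365 CPM in injured CD31+ cells and 425, 444 and 380 CPM in resting CD31+ cells. Srebf2, the transcription factor of the pathway, was at 60.8, 55.9 and 76.8 CPM in injured MmSCs and 171, 168 and 158 CPM in resting MmSCs, against 34.4, 44.9 and 39.2 CPM in injured CD31+ cells and 34.4, 41.9 and 34.4 CPM in resting CD31+ cells. The interaction of Srebf2 was -1.46 ± 0.23 (SE, adjusted p = 0.00019). Msmo1, a sterol oxidase, had one of -2.26 ± 0.46 (SE, adjusted p = 0.0021).

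Some growth factors rose in CD31+ cells and had a lower interaction. Pgf, placental growth factor, a ligand of the VEGF receptor Flt1, was at 6.7, 12.2 and 14.3 CPM in injured MmSCs and 61.4, 41.8 and 65.7 CPM in resting MmSCs, against 568, 956 and 591 CPM in injured CD31+ cells and 21.4, 11.8 and 3.89 CPM in resting CD31+ cells. It rose in CD31+ cells by 5.78 and fell in MmSCs by 2.36 on the log2 scale, and its interaction was -8.14 ± 0.52 (SE, adjusted p = 1.51e-09). Before injury MmSCs were the higher cell type in Pgf, and after it all injured CD31+ libraries lay above all MmSC libraries. Angpt2, a ligand of the Tie2 receptor that loosens vessel walls, was at 3.56, 6.44 and 2.39 CPM in injured MmSCs and 20.3, 38.4 and 6.78 CPM in resting MmSCs, against 290, 434 and 278 CPM in injured CD31+ cells and 116, 64 and 109 CPM in resting CD31+ cells. The interaction of Angpt2 was -4.18 ± 0.58 (SE, adjusted p = 3.74e-05). Inhbb, a subunit of activin B, was at 0, 0.339 and 0.734 CPM in injured MmSCs and 4.1, 3.66 and 4.97 CPM in resting MmSCs, against 32.8, 63.7 and 23.9 CPM in injured CD31+ cells and 2.81, 2.58 and 0.599 CPM in resting CD31+ cells. The interaction of Inhbb was -7.85 ± 0.87 (SE, adjusted p = 5.26e-06).

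Bmp2, a bone morphogenetic protein, was at 11, 5.25 and 8.45 CPM in injured MmSCs and 13, 10.7 and 26.4 CPM in resting MmSCs, against 33, 32.2 and 16.2 CPM in injured CD31+ cells and 0, 0.287 and 0 CPM in resting CD31+ cells. The CD31+ counts were 473 after injury against 1 at rest, which is 307-fold (95% counting interval 54.9 to 12200), and the interaction was called (adjusted p = 9.81e-06). Gdf15, a stress-induced cytokine, had 432 counts in injured CD31+ cells against 2 in resting CD31+ cells, which is 140-fold (95% counting interval 38.6 to 1160), and 3 counts in injured MmSCs. Bmp4 was lower through a fall in MmSCs, with an interaction of -2.28 ± 0.36 (SE, adjusted p = 0.00017). Beside 7.71% of all genes lower and 4.78% higher, 4 of 25 growth factors tested were lower and 1 higher, and of 27 angiogenic and tip-cell genes 8 were lower and 2 higher, with a median of -1.28, or -0.88 with genes lacking counts set at their floor.

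Other angiogenic genes moved in both directions. Pdgfa, a growth factor for mural and stromal cells, rose in CD31+ cells by 2.31 with no call in MmSCs, and its interaction was -1.90 ± 0.36 (SE, adjusted p = 0.00107). An opposite-strand RNA covers 26.1% of its exons. Tek, the Tie2 receptor, fell in MmSCs by 3.24 on the log2 scale and had an interaction of -2.38 ± 0.48 (SE, adjusted p = 0.00177). Esm1, a secreted proteoglycan of endothelial tip cells, was called higher, at 2.77 ± 0.64 (SE, adjusted p = 0.00743), with 22.2, 21.7 and 8.45 CPM in injured MmSCs and 5.8, 1.37 and 2.94 CPM in resting MmSCs, against 17.6, 18.8 and 9.21 CPM in injured CD31+ cells and 26.2, 11.5 and 24.3 CPM in resting CD31+ cells.

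Of 20 genes of vascular tone and barrier 5 were lower and 2 higher, beside 7.71% and 4.78% of all genes. Edn1, the vasoconstrictor endothelin-1, was at 4.99, 18.8 and 4.41 CPM in injured MmSCs and 70.6, 49.4 and 16.7 CPM in resting MmSCs, against 307, 337 and 312 CPM in injured CD31+ cells and 182, 117 and 115 CPM in resting CD31+ cells. The interaction of Edn1 was -3.49 ± 0.62 (SE, adjusted p = 0.00057). Procr, the protein C receptor, had one of -3.65 ± 0.47 (SE, adjusted p = 1.55e-05) and fell in MmSCs while it rose in CD31+ cells. Ace, angiotensin-converting enzyme, had one of -2.57 ± 0.29 (SE, adjusted p = 3.86e-06) through a fall in MmSCs alone. Cd34 had one of -2.28 ± 0.31 (SE, adjusted p = 3.62e-05) and was 1 of 2 lower genes among 15 leukocyte adhesion molecules, of which Vcam1 was higher at 1.28. The call of Vcam1 was lost without any 1 of 5 libraries (1.07 to 1.32, adjusted p = 0.0512 to 0.109).

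**Figure D4:**
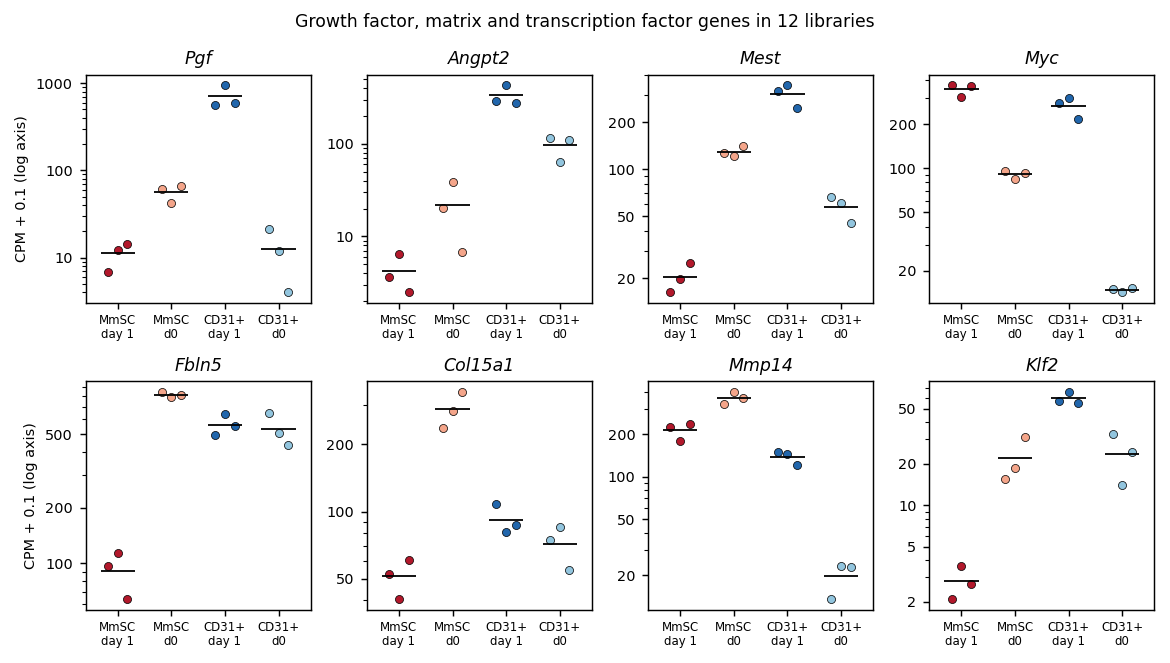
Levels of 8 genes in CPM plus 0.1 on a log axis, with 1 point per library and a bar at the group mean, for injured and resting MmSCs and injured and resting CD31+ cells from left to right. Pgf, Angpt2, Mest and Klf2 are lower in injured than in resting MmSCs and higher in injured than in resting CD31+ cells, while Fbln5 and Col15a1 fall in MmSCs and Myc rises in both.

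Several immediate-early and stress genes had a lower interaction. Of 28 immediate-early and dissociation stress genes 8 were lower and 0 higher, beside 7.71% and 4.78% of all genes (8 and 0 at an unadjusted p under 0.05, 7 and 0 with limma-voom, 8 and 0 with DESeq2). Such genes also respond to enzymatic digestion, which every library underwent. Klf2, a flow-sensitive transcription factor of endothelium, was at 1.99, 3.56 and 2.57 CPM in injured MmSCs and 15.5, 18.5 and 31.2 CPM in resting MmSCs, against 56.8, 66.2 and 54.9 CPM in injured CD31+ cells and 32.6, 13.8 and 24.3 CPM in resting CD31+ cells. The interaction of Klf2 was -4.32 ± 0.48 (SE, adjusted p = 3.24e-06). Klf4 had one of -2.95 ± 0.25 (SE, adjusted p = 7.5e-08) and Klf6 one of -1.58 ± 0.22 (SE, adjusted p = 5.54e-05). Atf3, a stress-induced factor, fell in MmSCs by 1.25 on the log2 scale and rose in CD31+ cells by 3.33, with an interaction of -4.58 ± 0.59 (SE, adjusted p = 1.78e-05). Jun, an AP-1 subunit, had one of -1.10 ± 0.23 (SE, adjusted p = 0.00244).

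Myc rose in both cell types. It was at 371, 306 and 367 CPM in injured MmSCs and 95.6, 84.8 and 93.1 CPM in resting MmSCs, against 277, 304 and 217 CPM in injured CD31+ cells and 14.9, 14.1 and 15 CPM in resting CD31+ cells. The interaction of Myc was -2.25 ± 0.22 (SE, adjusted p = 6.1e-07). Injured MmSCs were higher in Myc than injured CD31+ cells by a log2 difference of 0.39 (adjusted p = 0.0243). Resting MmSCs were higher in it than resting CD31+ cells by 2.63. Among 20 genes of amino acid stress and the unfolded protein response, 13 rose in CD31+ cells and 7 in MmSCs, and 5 had a lower interaction, beside 7.71% of all genes. Atf4, the effector of the integrated stress response, was at 355, 353 and 353 CPM in injured MmSCs and 319, 245 and 292 CPM in resting MmSCs, against 465, 524 and 439 CPM in injured CD31+ cells and 145, 139 and 176 CPM in resting CD31+ cells. The interaction of Atf4 was -1.33 ± 0.17 (SE, adjusted p = 2.07e-05). Hspa5, the chaperone BiP, had one of -1.14 ± 0.19 (SE, adjusted p = 0.000354). Xbp1, an unfolded protein response factor, had one of -1.01 ± 0.16 (SE, adjusted p = 0.000177), and Sdf2l1, a protein of the endoplasmic reticulum, one of -1.30. The call of Sdf2l1 was lost without replicate 1 of the resting CD31+ cells (-1.02, adjusted p = 0.0567).

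Some programmes moved in the same direction in both cell types. All 22 ribosome biogenesis genes rose in MmSCs and all 22 rose in CD31+ cells. Beside 4.78% and 7.71% of all genes, 7 had a higher interaction in MmSCs and 0 a lower one, with a median of 0.51 (10 and 1 at an unadjusted p under 0.05, 7 and 0 with limma-voom, 8 and 0 with DESeq2). Npm1, a nucleolar chaperone, was at 1699.8, 1521.3 and 1578.4 CPM in injured MmSCs and 258, 236 and 230 CPM in resting MmSCs, against 487, 504 and 386 CPM in injured CD31+ cells and 156, 177 and 153 CPM in resting CD31+ cells. The interaction of Npm1 was 1.23 ± 0.16 (SE, adjusted p = 1.89e-05). Ncl, nucleolin, had one of 1.02 ± 0.17 (SE, adjusted p = 0.000241), and Nop16 one of 1.26 ± 0.20 (SE, adjusted p = 0.000157). Of 25 glycolysis and hypoxia genes 5 were higher and 2 lower, with a median of 0.06, beside 4.78% of all genes higher and 7.71% lower. Ldha, lactate dehydrogenase, had one of 1.45 ± 0.17 (SE, adjusted p = 4.24e-06), Eno1, enolase, one of 1.18 ± 0.18 (SE, adjusted p = 9.32e-05), and Pfkl, phosphofructokinase, one of 2.12 ± 0.34 (SE, adjusted p = 0.000218). Npm1, Ldha and Eno1 have near-identical copies in the genome, so their counts are uncertain.

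Many interferon genes fell in both cell types. Of 30, 14 fell and 1 rose in MmSCs, and 26 fell and none rose in CD31+ cells. Beside 4.78% and 7.71% of all genes, 2 interactions were called higher and 0 lower, with a median of 0.45 (5 and 2 at an unadjusted p under 0.05, 2 and 0 with both limma-voom and DESeq2). Bst2, tetherin, had an interaction of 0.90 ± 0.23 (SE, adjusted p = 0.0101). Of 12 genes of MHC class I and peptide loading 6 fell in MmSCs and 11 in CD31+ cells. Their interactions were higher for 2 and lower for 1, beside the same shares of all genes. Among 13 oxidative stress genes and metallothioneins 2 were higher and 4 lower, beside 4.78% and 7.71% of all genes. Mt1, a metal-binding protein, rose in both, at 1377.8, 1526.7 and 1342.6 CPM in injured MmSCs and 206, 190 and 228 CPM in resting MmSCs, against 30, 42.1 and 32.1 CPM in injured CD31+ cells and 0.865, 0 and 0.899 CPM in resting CD31+ cells, with an interaction of -3.00 ± 0.57 (SE, adjusted p = 0.00109), although the rise on the linear scale was larger in MmSCs. Sqstm1, an autophagy receptor, had one of -1.61 ± 0.21 (SE, adjusted p = 1.78e-05).

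**Figure D5:**
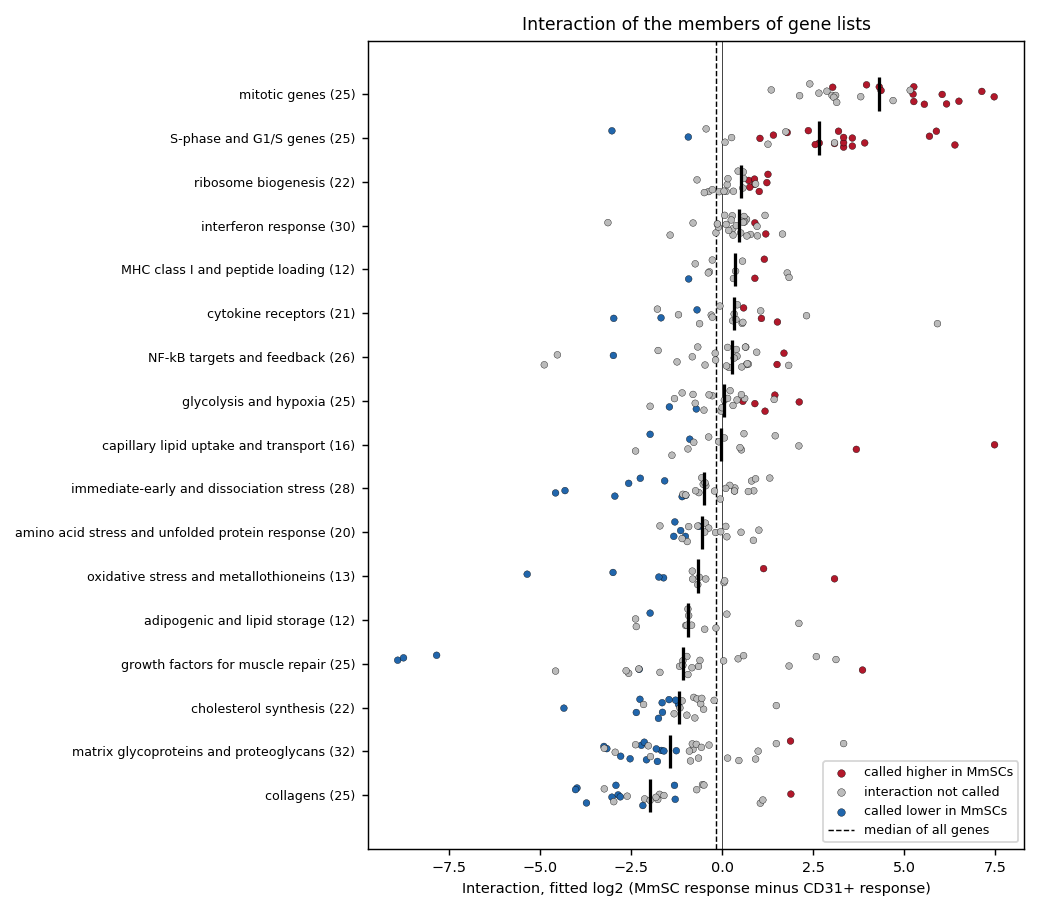
Fitted interaction of each tested member of 17 gene lists, with the number tested in parentheses, a bar at each list's median and a dashed line at the median of all genes of -0.16; red and blue points are members called higher and lower in MmSCs. Mitotic and S-phase genes lie to the right, and collagens and matrix glycoproteins to the left. The medians of ribosome biogenesis and interferon genes, 0.51 and 0.45, lie less far to the right of the line. Lists with fewer than 12 tested members, or with 2 or more that lack counts in a group, are not drawn.

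In 159 genes with a called interaction both responses were called in opposite directions, 41 up in MmSCs and 118 up in CD31+ cells. Mest, an imprinted gene of the hydrolase fold, was at 16.2, 19.8 and 25.2 CPM in injured MmSCs and 127, 122 and 140 CPM in resting MmSCs, against 314, 346 and 246 CPM in injured CD31+ cells and 66.2, 60.5 and 45.5 CPM in resting CD31+ cells. The interaction of Mest was -5.06 ± 0.49 (SE, adjusted p = 6.5e-07). Exons of the opposite-strand gene Copg2 cover 23.1% of its length. Chst1, a keratan sulfate sulfotransferase, was at 0.997, 0.508 and 1.29 CPM in injured MmSCs and 8.53, 7.31 and 9.49 CPM in resting MmSCs, against 32.5, 34.2 and 39.4 CPM in injured CD31+ cells and 4.54, 6.03 and 9.59 CPM in resting CD31+ cells. The interaction of Chst1 was -5.56 ± 0.80 (SE, adjusted p = 0.000146). Dusp8, a MAP kinase phosphatase, had one of -5.48 ± 0.69 (SE, adjusted p = 1.3e-05), and Itgb3, an integrin chain, one of -4.60 ± 0.65 (SE, adjusted p = 5.01e-05). AA467197 was at 0.712, 0.508 and 0 CPM in injured MmSCs and 0.341, 0.228 and 0.452 CPM in resting MmSCs, against 147, 207 and 118 CPM in injured CD31+ cells and 0.432, 0.287 and 0.599 CPM in resting CD31+ cells, and its interaction of -8.09 ± 1.36 (SE, adjusted p = 0.000464) came from CD31+ cells.

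Some of the lowest interactions are set here beside markers of other cells. H2-Eb1, an MHC class II chain, was at 0.855, 1.19 and 2.2 CPM in injured MmSCs and 8.87, 7.77 and 5.2 CPM in resting MmSCs, against 95, 5.14 and 2.91 CPM in injured CD31+ cells and 0, 1.15 and 2.7 CPM in resting CD31+ cells. Its interaction was -7.28 ± 1.50 (SE, adjusted p = 0.00232), and -4.16 (adjusted p = 0.000765) without replicate 1 of the injured CD31+ cells, the library with pan-leukocyte markers at 156 CPM and monocyte and macrophage markers at 175 CPM; limma-voom did not call it (adjusted p = 0.0595). H2-Ab1, its class II partner, was at 216, 8.7 and 2.58 CPM in injured CD31+ cells and 0.216, 1.15 and 3 CPM in resting CD31+ cells, high in the same library. Il1r2, a decoy receptor for interleukin-1 and a neutrophil marker, was at 20.4, 42.2 and 20.9 CPM in injured MmSCs and 84.1, 98.3 and 25.3 CPM in resting MmSCs, against 15.9, 0.198 and 1.45 CPM in injured CD31+ cells and 0, 0 and 0 CPM in resting CD31+ cells. Its level in injured CD31+ cells came mostly from the same library. The 8 neutrophil markers, Il1r2 among them, summed to 20.3 to 42.6 CPM in injured MmSCs and 25.2 to 98.4 CPM in resting MmSCs, against a median of 4.65 CPM in injured CD31+ cells, with 0.788 CPM as the lowest sum and the highest in replicate 1, and 0 to 4.83 CPM in resting CD31+ cells. Ly6g was at 0 in all 4 groups and the other 7 were detected in injured CD31+ cells. In MmSCs nearly all of the neutrophil sum was Il1r2 itself. S100a8 and S100a9 had no count in resting MmSCs, and Cxcr2 and Mmp8 had none in injured MmSCs. The part of leukocyte RNA in these values was not tested.

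Acta1, skeletal muscle actin, was at 0, 2.37 and 1.29 CPM in injured MmSCs and 252, 191 and 81.8 CPM in resting MmSCs, against 16.3, 48.1 and 17.4 CPM in injured CD31+ cells and 68.1, 70.6 and 51.2 CPM in resting CD31+ cells. The interaction of Acta1 was -5.98 ± 0.73 (SE, adjusted p = 9.88e-06). All 10 myofibre markers were detected in resting MmSCs, with Myh2 and Tnnc2 at 0 in injured MmSCs. Of 8 tested, 5 had a lower interaction, beside 7.71% of all genes. Ighm, an immunoglobulin heavy chain, was at 1.42, 0 and 0.184 CPM in injured MmSCs and 87, 75.4 and 23.3 CPM in resting MmSCs, against 15.4, 20.4 and 0 CPM in injured CD31+ cells and 0.865, 0 and 0.3 CPM in resting CD31+ cells. The interaction of Ighm was -11.33 ± 1.49 (SE, adjusted p = 2.21e-05). Itgb7, an integrin chain of lymphocytes, was at 2.28, 4.07 and 1.47 CPM in injured MmSCs and 88.2, 88.9 and 25.3 CPM in resting MmSCs, against 11.1, 3.95 and 4.2 CPM in injured CD31+ cells and 2.59, 3.44 and 1.5 CPM in resting CD31+ cells. The interaction of Itgb7 was -6.04 ± 0.74 (SE, adjusted p = 9.88e-06). The B, T and NK cell markers summed to at most 0.733 CPM in injured MmSCs and 1.87 CPM in resting MmSCs, with Cd3e and Cd3g at 0 in resting MmSCs. Abcc9, a channel subunit of pericytes, had an interaction of -5.38 ± 1.00 (SE, adjusted p = 0.000908). The pericyte and smooth muscle markers, Abcc9 among them, summed to 70.7 to 112 CPM in injured MmSCs and 121 to 164 CPM in resting MmSCs. Their sums were higher in CD31+ cells, at 317 to 505 CPM after injury and 580 to 810 CPM at rest. The part of myofibre or mural RNA in these values was not tested.

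The response of MmSCs was also set beside those of satellite cells (MuSCs) and CD45+ leukocytes of the same experiment, with the MmSC libraries shared. Against MuSCs 331 genes (2.02%) were higher and 920 (5.62%) lower in MmSCs, and against CD45+ cells 2222 (13.6%) were higher and 1879 (11.5%) lower. Mcm5 changed by 5.56 in MmSCs, 4.06 in MuSCs, -1.30 in CD45+ cells and 1.64 in CD31+ cells. Slc39a14 changed by 3.27 in MmSCs, 0.27 in MuSCs (not called), 3.71 in CD45+ cells and 0.18 in CD31+ cells (not called). Cdkn1a rose by 2.12 in MuSCs, 2.44 in CD45+ cells and 2.51 in CD31+ cells, with no call in MmSCs (-0.52). Csf1 rose by 1.22 in MmSCs, 4.59 in MuSCs and 3.15 in CD45+ cells, against -0.48 in CD31+ cells (not called).

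Other MmSC libraries of the series, not used for the interaction, came from uninjured C57BL/6J mice given cytokines or PBS by intraperitoneal injection. The Il-1b, Osm and PBS groups held 2 libraries each. At 2 h after Il-1b alone, 42.0% of 771 genes with a higher interaction rose and 5.71% fell, and 16.9% of 1228 genes with a lower interaction rose and 24.3% fell. Over the 14325 genes tested in both fits 20.9% rose and 14.9% fell, and over all 15965 genes of the cytokine fit 19.5% and 13.7%. Genes that rose in injured MmSCs with no called interaction rose after Il-1b in 53.5% of cases. Those that fell in injured MmSCs with no called interaction fell after Il-1b in 28.8%. With Osm alone, 43.1% of the higher genes rose and 31.7% of the lower genes fell, against 20.4% and 16.9% of the genes tested in both fits (18.9% and 15.5% of the cytokine fit). Of genes that rose in injured MmSCs with no called interaction, 54.1% rose after Osm. Of those that fell with no called interaction, 32.1% fell after Osm. Slc39a14 rose by 4.63 after Il-1b and 3.58 after Osm, Prg4 by 2.79 and 3.14, and Osmr by 2.77 and 2.83, on the log2 scale. Mcm3 rose by 1.17 and 0.92, Fbln5 changed by 0.01 and -0.09 with no call, and Pgf rose by 1.96 after Il-1b and changed by -0.62 after Osm with no call. Injured MmSCs of Il1b-KO mice (3 libraries) were set against those of Il1b-WT mice (2 libraries). Of 759 higher genes, 10 (1.32%) rose and 0 fell in that comparison. The shares were 1.14% and 0.068% of the genes tested in both fits (1.12% and 0.0909% of the Il1b fit).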

How the data were processed

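The series holds bulk RNA-seq of sorted mouse muscle cells. The authors deposited raw counts per gene symbol (55011 symbols), made with STAR 2.7.3a and featureCounts on mm10/GRCm38, per the submitters' processing notes. The annotation counted, and how strand and multiply mapped reads were handled, is not given in the sources used here; overlapping genes and near-identical copies may therefore share reads. Exon overlaps were measured on GENCODE M21, which may not be the authors' annotation. No column was left unused.

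The interaction was fitted in R 4.3.3 with edgeR 4.0.16 (quasi-likelihood test, TMM factors, filterByExpr with a minimum count of 10) on 24 libraries: the 12 compared plus the MuSC and CD45+ libraries at both times, which share the estimate of the spread (16 residual degrees of freedom, biological coefficient of variation 22.4%). Of the genes, 16374 passed. P-values were adjusted by Benjamini-Hochberg over all genes tested, with a threshold of 0.05, and every adjusted p without another tool named is from this fit. Each SE was taken from the fit, as the size of the change over the root of F. The fit was tested on simulated counts. Alternatives were RLE and upper-quartile factors, other filters, the 12 libraries alone, a replicate block, each library left out, limma-voom (limma 3.58.1), DESeq2 1.42.0 and a test against a 2-fold difference. Other tables and figures used Python 3.11.15, pandas 2.3.3, numpy 2.4.6 and matplotlib 3.10.9.

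Depth of 3205606 to 7519352 counts set the precision. For a gene with no count in a group, folds are bounds against a floor of 3 counts per library; for 1 to 3 counts they carry an exact 95% interval. Both cover counting error only. The labels do not say that replicates came from separate animals, so p-values measure the spread between these libraries. Replicates of each group differed by more than sampling noise (chi-square per degree of freedom 5.122 to 16.061).

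The comparison, members and lists were chosen with earlier results of these data known. Genes were named by rule: the 15 highest and 15 lowest called interactions among well-measured genes, 5 each way among genes measured in 1 cell type, 6 with opposite responses, up to 6 per list by smallest p, and a fixed set of cytokine and marker genes. Genes outside it were chosen after their values were seen. Some genes that the rule names are not reported here.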

Additional observations from a re-analysis of the deposited data

Results flagged for a closer look

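The responses of the 2 cell types differed, by the test of the interaction itself, for 2046 genes. Among the named genes called in both cell types in opposite directions, Prc1 (6.05), Pdpn (5.71) and Prg4 (4.87, all log2) rose in MmSCs and fell in CD31+ cells. Ighm (-11.33), Chst1 (-5.56) and Mest (-5.06) fell in MmSCs and rose in CD31+ cells. In Ighm and Pdpn, however, the injured and resting CD31+ libraries overlapped. Prc1 and Pdpn were not called with limma-voom, at adjusted p = 0.0903 and 0.0919.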

How the results depend on the processing

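Against a 2-fold difference, the interaction was called for 379 genes (154 higher, 225 lower), the MmSC response for 2068 and the CD31+ response for 395, compared with 2046 (783 and 1263), 6852 and 3855 in the edgeR test against no difference. Leaving out each library in turn gave 1379 to 1921 interactions, 498 to 964 higher and 737 to 1160 lower, with 5430 to 6865 MmSC and 3013 to 3805 CD31+ responses. The lowest count of higher calls came without replicate 1 of the injured MmSCs. Without replicate 1, 2 or 3 of the resting MmSCs there were 964, 910 and 907 higher against 737, 743 and 843 lower, and without replicate 1 of the resting CD31+ cells 915 against 847. RLE factors gave 2037 calls, upper-quartile factors 2028, no filter 2039, the 12 libraries alone 2343, limma-voom 2171 and DESeq2 2692. Of 96 called named genes, 9 lost the call without at least 1 library and 39 in at least 1 other setting, of which 33 against a 2-fold difference; no named gene changed sign. Without a filter Ifnar2 and Ifngr1 were not called and Il33 was (2.48, adjusted p = 5.76e-08), and Pdgfra was called without a filter or with the 12 libraries alone. The replicate block gave 1965 calls, 93.3% of the main calls being kept. Same-numbered libraries did not deviate together over the 4 groups (r = -0.106 to 0.271), although resting MmSCs and resting CD31+ cells did, with r = 0.271, 0.127 and 0.168, each correlating best with its own number. Fold changes of genes near 0 counts in 1 cell type are limited by depth.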
